A study of Mus musculus with 6 samples.

Results

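Ethinyl estradiol (EE), the synthetic estrogen of many oral contraceptives, was compared with placebo in splenocytes, the cells isolated from the spleen, of female NZB/WF1 mice. The comparison took both samples labelled with EE (replicates 11 and 14) and both labelled as placebo control (replicates 22 and 26), which are 4 of the 6 samples of the series, across all 561 gene rows of the table. Control rows for spiked-in RNA were left out. EE mice carried an implant of 17alpha-ethinyl estradiol, which is estradiol with an ethynyl group at its 17-alpha carbon, and placebo mice an empty implant. The remaining 2 samples came from mice with an implant of natural 17-beta estradiol (E2) and were used for the spread between samples and for 1 comparison at the end. All mice were of the same hybrid strain, which develops a lupus-like disease, received the implant at 6 to 7 weeks of age and were treated for 9 weeks. The labels do not state implant doses, cartridges and lanes, or whether a sample was 1 mouse or a pool. The p-values therefore measure only the spread between these samples, which may be technical.

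Estrogens act mainly through nuclear receptors that bind DNA and change transcription. In mice, estrogen exposure is known to reduce lymphocyte production in thymus and bone marrow, and the red pulp of the mouse spleen can make red cells, platelets and myeloid cells beside its white pulp of B and T cells. Disease in the NZB/WF1 strain rests on autoantibodies and is known to be more severe in females.

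Total RNA was measured with a NanoString nCounter panel of mouse immunology genes, in which colour-coded probes hybridise to RNA and are counted without amplification. The values did not behave as raw counts, and no label states how they were scaled. The geometric mean of 14 reference genes, taken as the 12 that could be named plus the best of 66 pairs of unnamed rows, lay between 1415.5 and 1416.4 in the 6 samples, a spread of 0.06%. The next best pair gave 1.757%. Levels are therefore given as scaled barcode counts, that is, relative to these reference genes, and compared between samples of 1 gene, not between genes. Of the 561 genes, 457 with a mean of at least 20 over the 6 samples were tested with limma on log2(value + 1), and 104 were left out. A gene is called where its two-sided p, with Benjamini-Hochberg adjustment across all 457, is under 0.05.

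Gene totals were 646299 and 673384 in EE, against 822812 and 863942 in placebo, and the positive controls ran the other way, with geometric means of 841 and 894 in EE and 703 and 678 in placebo. Background, set 2 SD above the average negative control, was 10.1 to 13.7, and 475 to 498 genes per sample exceeded it. The replicates of a group were close: the median absolute log2 difference over genes was 0.138 between the EE samples and 0.223 between the placebo samples, against 0.717 to 0.839 between an EE and a placebo sample. B cell and T cell markers were well above background in each sample, among them Ms4a1 (CD20) at 9360 and 9632 in EE and 16327 and 16499 in placebo, which fits the tissue label. The defining NK cell markers Ncr1 and Klrb1c were not among the named rows.

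Most of the panel was lower in EE splenocytes on this scale. Compared with placebo, EE had 72 of 457 genes higher (15.8%) and 290 lower (63.5%), or 79.2% either way, and the median log2 fold change over all tested genes was -0.69. Changes of more than 2-fold were called for 34 genes upward (7.44%) and 121 downward (26.5%). Both EE samples lay above both placebo samples for 86 genes (18.8%) and below them for 320 (70%), or 88.8% either way. The 3 genes that were called although the groups overlapped were Irf3, Clec4e and Fcgr4. Without placebo replicate 26, Irf3 (-0.20, adjusted p = 0.629) and Clec4e (0.15, adjusted p = 0.629) were no longer called. Calls at the more than 2-fold level downward numbered 92 without placebo replicate 26 and 152 without placebo replicate 22. In bulk samples such as these, fewer cells of a type and less RNA per cell cannot be told apart.

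The share of lower genes depended on the scale. With trimmed-mean (TMM) scaling, which centres the panel on its middle genes, 141 genes were higher (30.9%) and 125 lower (27.4%), with a median of -0.01. The median gene as scale gave 111 higher and 190 lower, quantile normalisation 107 and 174, column totals 104 and 214, and the positive controls 40 and 326. The median over all tested genes moved by 0.69 with TMM scaling, 0.46 with the median gene, 0.48 with quantile normalisation, 0.35 with column totals and -0.33 with the positive controls, so a log2 fold change below is to be read against the median of -0.69. All 72 genes called higher on the deposited scale were also called higher with TMM scaling, and 125 were called lower on both. Another 14 genes (3.06%) were lower as deposited and higher with TMM scaling. Under each of the 7 scalings 40 genes were called higher (8.75%) and 123 lower (26.9%), and these are described below as called under every scaling. Counts in a gene list below are to be read against these shares, and against 15.8% higher and 63.5% lower as deposited.

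**Figure D1:**
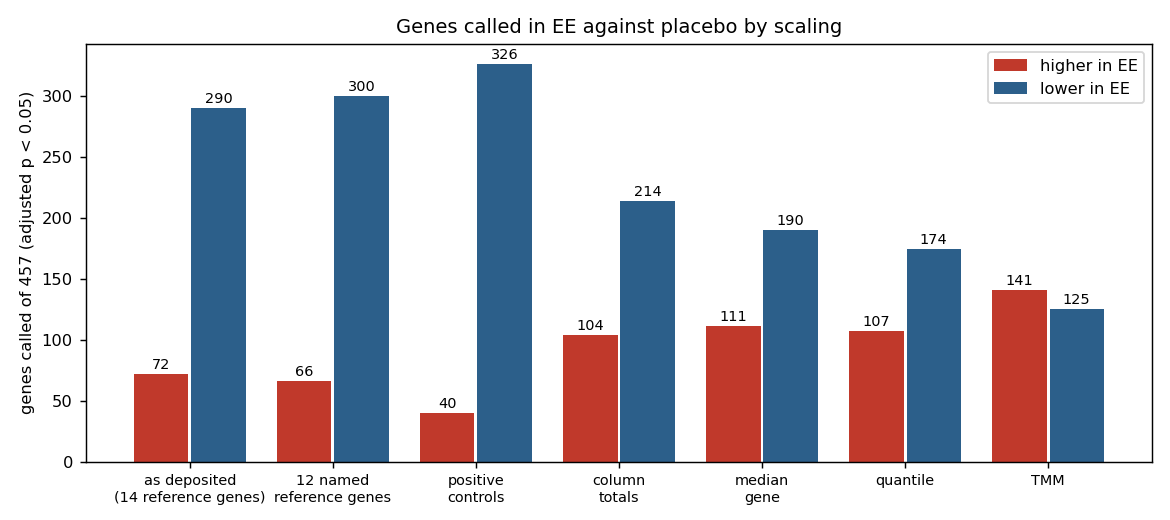
Numbers of genes called higher (red) and lower (blue) in EE than in placebo splenocytes, of 457 tested, for the values as deposited and under 6 other scalings (bars start at 0). Genes called higher ranged between 40 and 141 and genes called lower between 125 and 326.

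The spread used by the test was almost entirely shared between genes of like level, with a prior of 232 degrees of freedom against 3 from the samples. With the spread of each gene alone, a setting chosen after seeing the data, 55 genes were higher and 256 lower, and 34 of the 40 and 123 of the 123 genes called under every scaling were still called. Of the 362 genes called either way, 301 were called under both settings.

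Neutrophil granule genes were higher in EE splenocytes. All 5 tested members of the list were called higher, also under every scaling, with a median log2 fold change of 3.65 against -0.69 over all tested genes. S100a8 and S100a9 encode the subunits of calprotectin, the most abundant cytosolic protein of neutrophils. S100a8 stood at 47517 and 54555 in EE replicates 11 and 14, against 5169 and 3189 in placebo replicates 22 and 26. The groups were far apart, with a log2 fold change of 3.65 ± 0.15 (SE), or 12.5-fold (adjusted p = 6.28e-65 in limma with the shared spread). With the spread of the gene alone, the adjusted p of S100a8 was 0.0137. S100a9 was at 27545 and 31216 in EE and at 3413 and 2063 in placebo (3.47 ± 0.14). Camp, the precursor of the antimicrobial peptide cathelicidin, was at 5913 and 6879 in EE and 584 and 369 in placebo, a rise of 13.7-fold. In each of these 3 genes, picked among those whose groups did not overlap, placebo replicate 22 was the higher of the placebo samples. Together the 3 transcripts took 12.5% and 13.8% of all gene counts in EE and 1.11% and 0.651% in those of placebo.

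Ctsg encodes cathepsin G, a serine protease packed into granules by neutrophil precursors. Its values were 519 and 612 in EE, against 29 and 10 in placebo, of which the last was at background. The log2 fold change of 4.96 ± 0.20 was the largest of the panel, but its size hung on the placebo samples: it was 4.23 without placebo replicate 26 and 5.68 without placebo replicate 22. Ltf, which encodes the iron-binding protein lactoferrin, was at 146 and 166 in EE and 26 and 25 in placebo (2.56 ± 0.22). Surface receptors of neutrophils were mixed. Of 10 tested, 4 were higher, 2 lower and 4 not called, with a median of 0.17, and under every scaling 3 were higher and 1 lower. Clec5a, a lectin receptor of myeloid cells, was at 119 and 116 in EE and 21 and 19 in placebo (5.65-fold). Ltb4r1, the receptor for the neutrophil attractant leukotriene B4, rose by 1.26 and the integrin gene Itgam by 0.90. Csf3r, the receptor for granulocyte colony-stimulating factor, was at 110 and 104 in EE and 163 and 108 in placebo (-0.31 ± 0.21, not called).

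**Figure D2:**
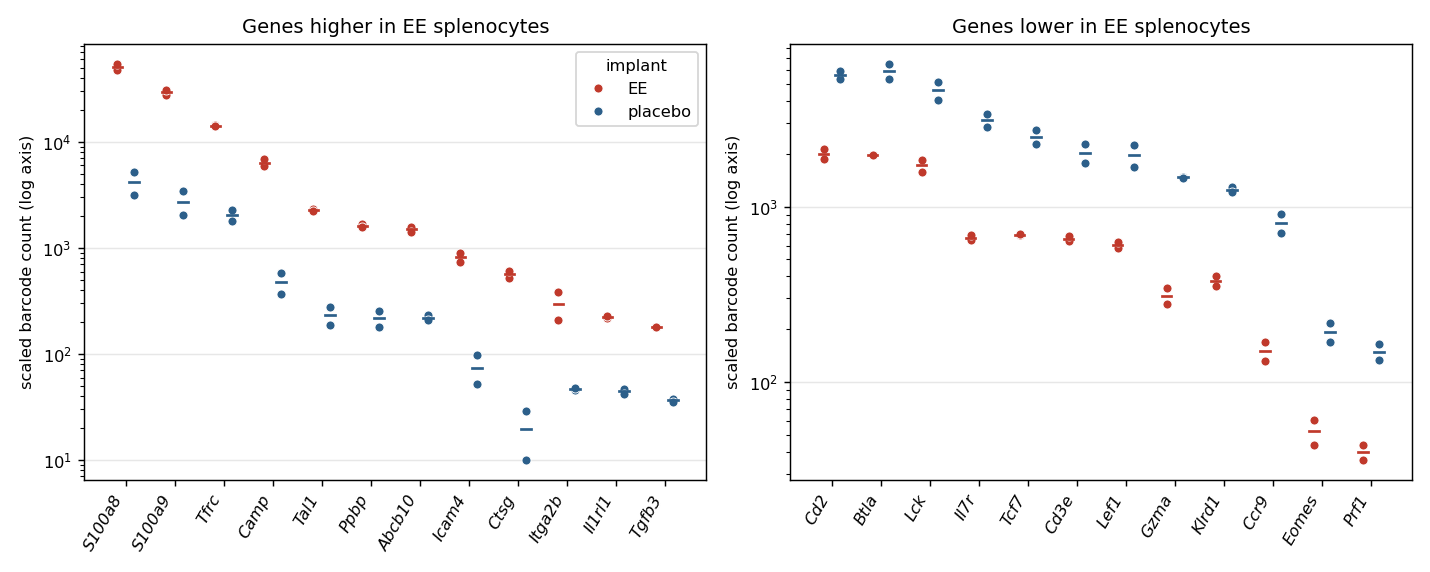
Scaled barcode counts (log axis) of 12 genes higher (left) and 12 genes lower (right) in EE splenocytes. Each point is 1 sample, EE in red left of placebo in blue, and each bar the mean of 2 samples. The EE and placebo samples do not overlap in any of these 24 genes. Most of the 24 were picked under that condition, and 88.8% of all 457 tested genes do not overlap either.

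Genes of red cell precursors were also higher. Of 8 tested genes of the erythroid and iron list, 6 were called higher and 0 lower, the same 6 under every scaling, with a median of 2.51. Tfrc encodes the transferrin receptor, through which precursors take up iron for haem. It was at 14368 and 14188 in the EE samples, against 2304 and 1810 in the placebo samples. The 2.81 ± 0.13 rise, or 6.99-fold, came with nearly equal EE values. Tal1, a transcription factor needed for the blood stem cell and red cell lineages, stood at 2342 and 2224 in EE and 275 and 189 in placebo (9.97-fold). Icam4, the Landsteiner-Wiener adhesion molecule of red cells, was at 891 and 745 in EE and 97 and 52 in placebo (11.3-fold). Abcb10, a transporter of the inner mitochondrial membrane used in haem synthesis, was at 1586 and 1427 in EE and 233 and 208 in placebo (6.81-fold). In all 4 genes the lower EE sample was above the higher placebo sample several times over.

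Cd24a, a surface glycoprotein of erythroid precursors, immature B cells and granulocytes, was at 28163 and 27017 in EE and 6658 and 4982 in placebo (2.26 ± 0.14). Cd59b, a complement inhibitor, was at 25 and 33 in EE and 11 and 6 in placebo. Both of its placebo values were at or under background, so it was at least 2.32-fold higher (adjusted p = 5.00e-05), and with the spread of the gene alone its call was lost (adjusted p = 0.0576). Hfe and Cd44 were not called on the deposited scale (0.24 ± 0.16 and 0.00 ± 0.13) but were called higher with TMM scaling (0.93 and 0.69). The summed values of the 8 genes were 49283 and 47712 in EE and 11719 and 8944 in placebo. Prim1, the DNA primase subunit that starts DNA synthesis, was higher as well, at 720 and 682 in EE and 255 and 214 in placebo (1.58 ± 0.15). It belongs to none of the lists and was picked after its values were seen.

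Megakaryocyte and platelet genes changed in both directions. Of 6 tested, 3 were higher, 2 lower and 1 not called, with a median of 0.88 and the same 3 and 2 under every scaling. Ppbp, the precursor of platelet chemokines such as beta-thromboglobulin, was at 1675 and 1564 in EE and 256 and 178 in placebo (7.55-fold). Itga2b, the platelet integrin alpha chain CD41, was at 385 and 210 in EE and at 46 and 48 in placebo (2.57 ± 0.23). Gp1bb, a chain of the platelet receptor for von Willebrand factor, was at 50 and 44 in EE and 17 and 12 in placebo (1.65 ± 0.36). Those lower were Pecam1 (-1.15) and the transcription factor Runx1 (-0.97). Among blood progenitor and lineage regulators, 2 of 12 were higher and 8 lower (median -0.66), and 1 higher and 5 lower under every scaling. The 8 lower included Notch1, Notch2 and Ikzf1. With 1 EE or placebo sample left out, Notch1 lay between -1.55 and -1.21, Notch2 between -1.35 and -1.02 and Ikzf1 between -1.12 and -1.06. Besides Tal1 the higher one was Cd34, a marker of progenitors and endothelium, at 46 and 35 in EE and 21 and 20 in placebo (0.94 ± 0.32), whose call was lost without EE replicate 11 (0.74, adjusted p = 0.104). Kit, the stem cell factor receptor of progenitors and mast cells, was at 46 and 48 in EE and 38 and 42 in placebo (0.23 ± 0.29, not called).

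**Figure D3:**
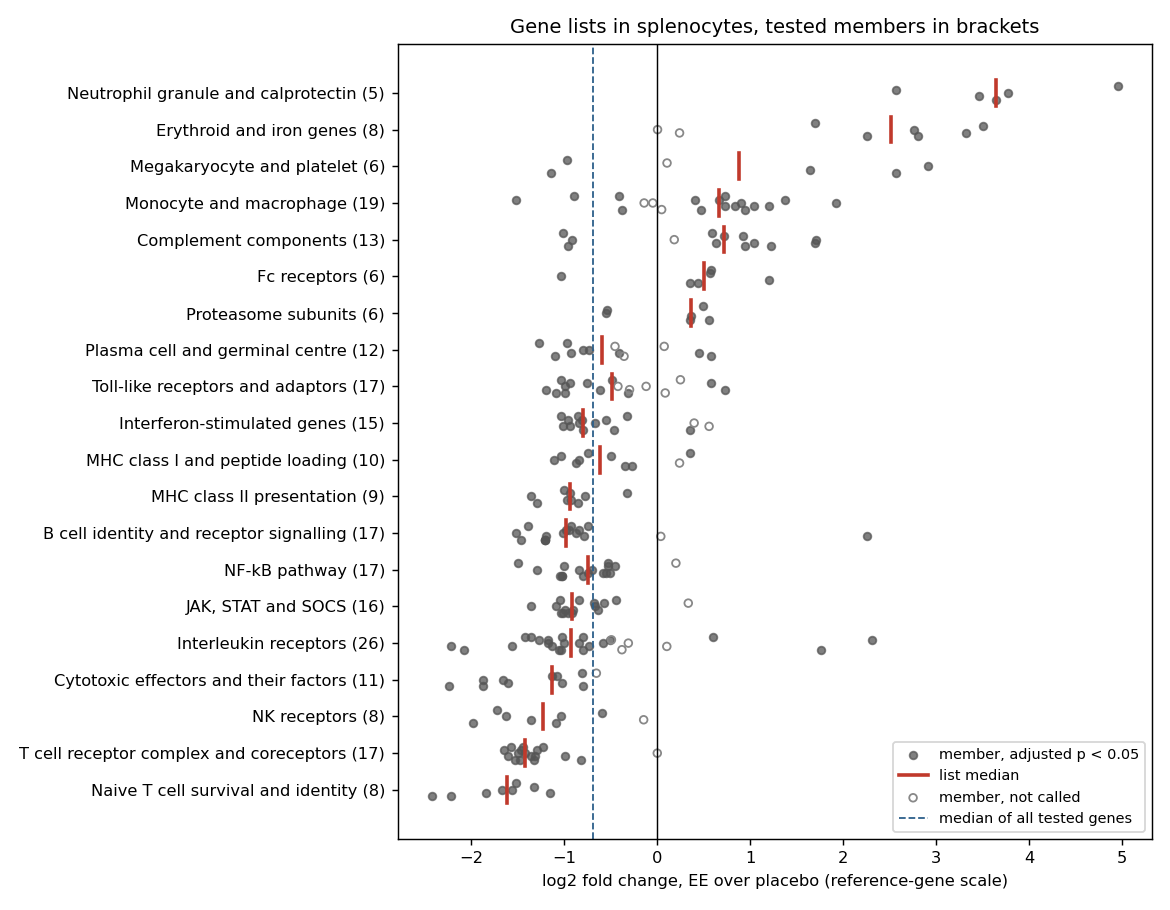
Log2 fold changes of EE over placebo on the deposited, reference-gene scale, for the tested members of 20 gene lists (number in brackets). Filled points are called members, open points those not called, red bars the list medians, and the dashed line the median of all tested genes at -0.69. Neutrophil granule and erythroid genes have medians of 3.65 and 2.51, naive T cell and T cell receptor genes -1.61 and -1.42.

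Monocyte and macrophage genes were more often higher than lower. Of 19 tested monocyte and macrophage genes, 12 were higher, 4 lower and 3 not called, with a median of 0.67, and under every scaling 8 were higher and 1 lower. Cd36, the scavenger receptor that red pulp macrophages carry, was at 3116 and 2935 in EE and 1246 and 1083 in placebo (1.38 ± 0.13). The complement starter genes C1qa and C1qb, made by tissue macrophages, rose by 0.95 ± 0.13 and 1.04 ± 0.13. C1qa was at 3625 and 4063 in EE and 2094 and 1890 in placebo, and C1qb at 3317 and 3791 in EE and 2029 and 1468 in placebo. Fcgr1, the high-affinity IgG receptor, rose by 1.20 ± 0.19 and Lilra5 by 0.84. Adgre1, a surface marker of macrophages, was at 1224 and 1425 in EE and 935 and 680 in placebo (0.73 ± 0.14), and its call was lost with the spread of the gene alone (adjusted p = 0.0565). Among the 4 lower members, Cx3cr1, the fractalkine receptor, was at 24 and 40 in EE and 111 and 74 in placebo (-1.52 ± 0.28, lower under every scaling), and Ccr2 fell by 0.89 on the deposited scale but was not called with TMM scaling (-0.21).

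Complement components had 9 of 13 tested members higher, 3 lower and 1 not called, with a median of 0.72, and 6 higher and 1 lower under every scaling. Another 16 members of the list of 29 were below the level tested. Clu, clusterin, an extracellular chaperone that inhibits terminal complement, was at 345 and 309 in EE and 100 and 98 in placebo (1.71 ± 0.19). C3, the central component, rose by 1.22 ± 0.19 and Cfp, properdin, which stabilises the alternative convertase, by 0.72 ± 0.13. The call of C3 was lost with the spread of the gene alone (adjusted p = 0.05, just over the threshold). Cd55, which dissolves convertases on the cell surface, was at 870 and 933 in EE and 1681 and 1833 in placebo (-0.96 ± 0.13). Fc receptors had 5 of 6 members higher and 1 lower (median 0.51), but under every scaling only Fcgr1 was higher and Fcgr2b lower. Fcgr2b, the inhibitory IgG receptor of B cells and myeloid cells, fell by 1.03 ± 0.13. Fcgr4 was at 577 and 637 in EE, and at 646 and 256 in placebo, so that the groups overlapped, and its rise of 0.57 was 1.24 without placebo replicate 22 and turned to -0.09 without placebo replicate 26 (adjusted p = 0.597).

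The following genes were picked for their size and form no tested group. Il1rl1 encodes ST2, the receptor for interleukin-33 on mast cells, basophils, type 2 lymphoid cells and some regulatory T cells. It was at 219 and 230 in EE and 47 and 42 in placebo (2.31 ± 0.21), with each group tight around its mean. Ccl24, an eosinophil-attracting chemokine, was at 455 and 532 in EE and 104 and 116 in placebo (2.15 ± 0.17), and its receptor gene Ccr3 at 641 and 801 in EE and 355 and 326 in placebo (1.07 ± 0.15). Il1r1, the signalling receptor for interleukin-1, was at 137 and 135 in EE and 38 and 41 in placebo (1.76 ± 0.24). Il1b, a ligand of that receptor, went the other way, at 97 and 134 in EE and 350 and 193 in placebo (-1.18 ± 0.20). Its call was lost with TMM scaling (-0.50, adjusted p = 0.155) and with the spread of the gene alone (adjusted p = 0.103). Of the 5 mast cell, basophil and eosinophil genes measured, 3 were tested, with 2 higher and 1 not called (median 1.07). The mast cell marker Fcer1a, with at most 23 in any of the 4 samples, was not tested, and Kit was not called, as given above. Il17rb, part of the receptor for the type 2 cytokine interleukin-25, went down, at 16 and 12 in EE, of which the last was under background, and 45 and 84 in placebo (-2.07 ± 0.34). Members of the TGF-beta and TNF families were also among the increases: Tgfb3 at 178 and 179 in EE and 38 and 35 in placebo (2.26 ± 0.22), and Tnfrsf14, the receptor HVEM, at 1794 and 1713 in EE and 722 and 714 in placebo (1.29 ± 0.13).

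Most T cell genes were lower on the deposited scale. Of 17 tested genes of the T cell receptor complex and its coreceptors, 16 were called lower and 0 higher, 15 of them under every scaling, with a median of -1.42. Cd3e, a signalling chain of the receptor complex, was at 638 and 677 in EE, against 1769 and 2278 in placebo (-1.61 ± 0.14, or 3.05-fold lower). Cd247, the zeta chain, fell by 1.65 ± 0.14, Cd2 by 1.49 and Lck, the kinase that starts receptor signalling, by 1.42. The coreceptors of both T cell classes were down by like amounts. Cd4 was at 656 and 706 in EE and 1615 and 2112 in placebo (-1.44), and Cd8a at 210 and 281 in EE and 673 and 681 in placebo (-1.47). The member not called was Cd3eap, at 37 and 28 in EE and 24 and 43 in placebo, which encodes a subunit of RNA polymerase I despite its name. Summed over the list, values were 9590 and 10758 in EE and 25370 and 29332 in placebo.

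Genes of naive T cell survival and identity were lower as well. All 8 tested were called lower, also under every scaling, with a median of -1.61. Il7r, the receptor for the T cell survival cytokine interleukin-7, was at 648 and 685 in EE and 2853 and 3368 in placebo (-2.22 ± 0.14, or 4.65-fold lower). Its adjusted p in limma was 6.74e-39 with the shared spread and 0.0137 with the spread of the gene alone. Ccr9, a homing receptor that thymocytes and gut-directed lymphocytes carry, was at 132 and 169 in EE and 709 and 912 in placebo, and its -2.42 ± 0.17 was the largest decrease of the panel. The transcription factors Tcf7 (TCF1) and Lef1, which keep T cells in the naive state, were at 686 and 699 and at 584 and 633 in EE, and at 2272 and 2728 and at 1677 and 2235 in placebo. The 2 EE samples were nearly equal in both genes, which fell by 1.84 and 1.67. The lymph node homing receptor gene Ccr7 fell by 1.52 and the survival gene Bcl2 by 1.16. These genes are also expressed in other lymphocytes, and no pure T cell population was measured.

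Among T helper lineage factors, 8 of 10 were lower and 0 higher (median -0.92), and 4 were lower under every scaling. These were Eomes and Tbx21, the T-box factors of cytotoxic and type 1 cells (-1.87 and -1.61), Gata3, the type 2 factor (-1.58), and Stat4 (-1.35). Checkpoint and costimulatory receptors had 10 of 11 lower, 5 of them under every scaling, with a median of -0.96. Btla, an inhibitory receptor of B and T cells, was at 1957 in both EE samples and at 5367 and 6512 in placebo (-1.59 ± 0.13). Cd40lg, the CD40 ligand of activated helper T cells, fell by 1.44, Cd96 by 1.52 and Icos by 0.96. Of 9 regulatory T cell genes, 7 were lower on the deposited scale with a median of -0.82, but 0 were called in either direction under every scaling, and with TMM scaling 2 were higher and 0 lower. Foxp3, their defining factor, was at 105 and 120 in EE and 160 and 160 in placebo (-0.51 ± 0.22, adjusted p = 0.0271). Its sign turned with TMM scaling (0.17), and its call was lost without EE replicate 11 (-0.41, adjusted p = 0.206), EE replicate 14 (-0.60, 0.0596), placebo replicate 22 (-0.51, 0.0827) or placebo replicate 26 (-0.51, 0.0874).

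Cytotoxic genes were lower with the T cell genes. Of 11 effectors and their factors, 10 were lower and 0 higher, 6 of them under every scaling, with a median of -1.13. Gzma, the protease granzyme A, was at 280 and 342 in EE and 1470 and 1463 in placebo (-2.24 ± 0.16, or 4.73-fold lower). Prf1, perforin, which opens the target cell membrane, was at 36 and 44 in EE and 134 and 165 in placebo (-1.88 ± 0.26). Runx3, a factor of CD8 and NK cells, fell by 1.66 ± 0.21. Of 14 NK receptor genes 8 were tested, 7 of them lower and 0 higher, 5 under every scaling, with a median of -1.22. Klrd1, CD94, was at 352 and 405 in EE and 1295 and 1204 in placebo (-1.72 ± 0.15), and Klrk1, NKG2D, fell by 1.09. The Ly49 receptor genes Klra4 and Klra8 fell by 1.98 ± 0.31 and 1.63 ± 0.21, but Ly49 genes are near-identical copies whose probes may count each other's transcripts, so the values of single members are uncertain. Cxcr6, a receptor of tissue-resident and effector lymphocytes, was at 154 and 212 in EE and 491 and 751 in placebo (-1.74 ± 0.17). Ifng, at 23 and 19 in EE and 35 and 32 in placebo, was not called (-0.65 ± 0.35), but was called on the positive controls (-0.97, adjusted p = 0.0126) and by limma without a trend of the spread with level (adjusted p = 0.00815).

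B cell genes were mostly lower. Of 17 tested, 15 were lower, 1 higher and 1 not called, with a median of -0.98, and under every scaling 10 were lower and 1 higher. Pax5, the factor that holds B cell identity, was at 1142 and 1137 in EE and 2692 and 3301 in placebo (-1.39 ± 0.13), and Cd22, an inhibitory coreceptor, fell by 1.46 ± 0.15. Placebo replicate 26 was the higher placebo sample in both genes. The groups did not overlap, as in 88.8% of all tested genes. Ms4a1 fell by 0.79 on the deposited scale and was not called with TMM scaling (-0.10). The 1 higher member was Cd24a, and the 1 not called was Cd81 (0.04 ± 0.13), both of which other cell types also express.

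Genes of plasma cells and germinal centres did not move together. Of 12 tested, 2 were higher, 7 lower and 3 not called, with a median of -0.59, and under every scaling 0 were higher and 2 lower, the interleukin-21 receptor gene Il21r (-1.27) and the costimulatory ligand gene Icosl (-1.10). Xbp1, the factor of the secretory programme, was at 3307 and 3278 in EE and 2553 and 2286 in placebo (0.45 ± 0.13, adjusted p = 0.00105). Its call was lost on the positive controls (0.12, adjusted p = 0.55) and with the spread of the gene alone (adjusted p = 0.111). Prdm1, BLIMP-1 of plasma cells, was at 192 and 166 in EE and 239 and 219 in placebo (-0.36 ± 0.19, not called). Bcl6, the germinal centre factor, fell by 0.97 and its partner in follicle homing Cxcr5 by 0.80, and neither was called with TMM scaling. Of the 4 BAFF, APRIL and receptor genes, 1 was higher and 2 lower on the deposited scale, and 0 were called either way under every scaling. Tnfsf13b, BAFF itself, was at 19 and 18 in EE and 14 and 17 in placebo, just above background (0.25 ± 0.37, not called).

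Genes of MHC class II presentation were lower on the deposited scale. All 9 tested MHC class II presentation genes were called lower on the deposited scale, with a median of -0.94, and 4 under every scaling, while with TMM scaling 1 was higher and 5 lower. Ciita, the transactivator that switches class II genes on, was at 991 and 945 in EE and 2176 and 2821 in placebo (-1.36 ± 0.13). H2-Ob, a modulator of peptide loading in B cells, fell by 1.29 and H2-Ab1 by 0.97, and H2-DMb2 was at 6348 and 6506 in EE and 11675 and 14130 in placebo. The summed values of the list were 120888 and 120203 in EE and 209226 and 239218 in placebo. MHC class I and loading genes had 8 of 10 lower and 1 higher (median -0.62), with Tap1, the peptide transporter, as the 1 lower under every scaling (-1.04). With TMM scaling this list had 4 higher and 1 lower. Probes for H2 genes may count near-identical relatives, so single members are uncertain. Dendritic cell genes had 7 of 9 lower and 0 higher (median -0.61), of which Ccr7 alone was lower under every scaling, and with TMM scaling 2 were higher and 1 lower. Both medians were near the -0.69 of all tested genes. Of 6 proteasome subunit genes, 4 were higher and 2 lower on the deposited scale, with a median of 0.36. The constitutive Psmd7 and Psmc2 rose by 0.56 and 0.49, and Psmb9, an immunoproteasome subunit induced by interferon, fell by 0.55. 0 of the 6 were called under every scaling, and Psmb9 turned to 0.14 with TMM scaling.

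**Figure D4:**
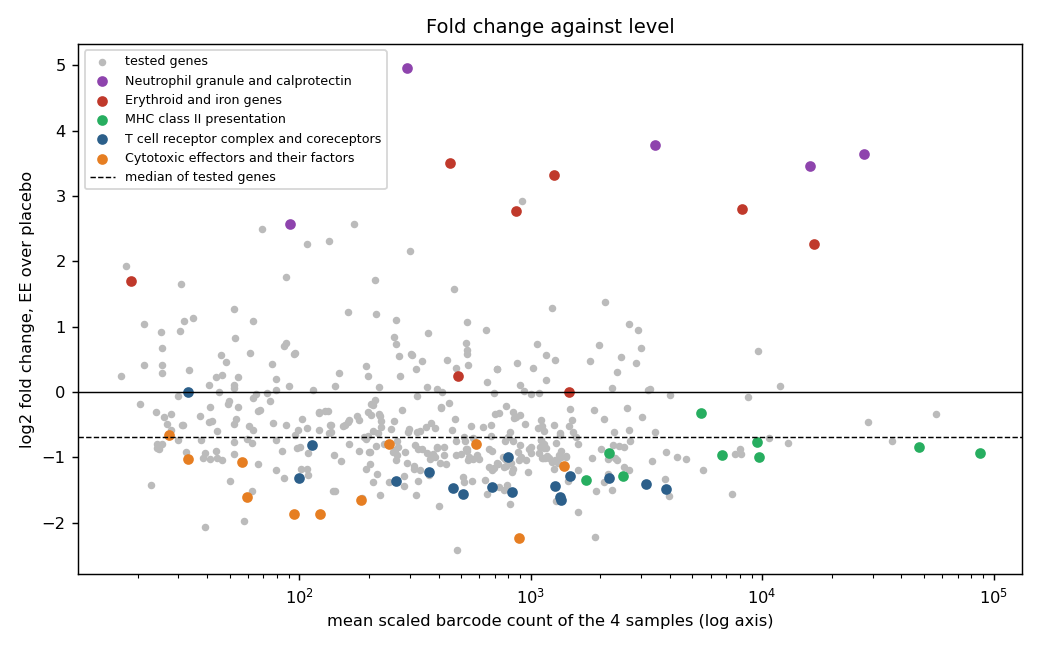
Log2 fold change of EE over placebo (deposited scale) against the mean scaled barcode count of the 4 samples (log axis), each point 1 of 457 tested genes, with 5 gene lists in colour and the median of -0.69 dashed. The 5 neutrophil granule genes lie between 2.56 and 4.96, and the 17 genes of the T cell receptor complex and its coreceptors between -1.65 and 0.00.

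Interferon-stimulated genes, which are often raised in lupus, were not higher as a group. Of 15 tested, 1 was higher and 12 lower, with a median of -0.80, and under every scaling 0 were higher and 3 lower: Tap1, Ifitm1 (-1.02) and Ddx58 (RIG-I, -0.94). With TMM scaling the list had 4 higher and 3 lower and a median of -0.12, against -0.01 for all tested genes on that scale. Irf7, the factor that amplifies type I interferon, was at 214 and 227 in EE and 186 and 150 in placebo. It was not called as deposited (0.40 ± 0.19, adjusted p = 0.0525) and was called higher with TMM scaling (1.08). Of 10 tested genes in the list of interferons and their receptors, 8 were lower and 0 higher (median -0.74). Under every scaling 2 were lower, the receptor gene Ifnar1 (-1.02) and Ikbke (-1.50). Ikbke encodes a kinase, is neither an interferon nor a receptor gene, and is also in the NF-kB list. The interferon alpha and beta genes themselves were too low to test. Toll-like receptors and adaptors had 2 of 17 higher and 10 lower (median -0.48), with Tlr1, Irak2, Irak4 and Sigirr as the 4 lower under every scaling, by 0.99 to 1.20. Neither share lower was above that of all tested genes, 63.5% as deposited and 26.9% under every scaling. C-type lectin and Card9 pathway genes had 3 of 6 higher and 1 lower (median 0.43), and under every scaling Clec5a higher and the kinase gene Syk lower (-1.20). Of 7 antiviral, inflammasome and intracellular sensor genes, 2 were higher and 4 lower (median -0.69), with Ddx58 as the 1 lower under every scaling. Of 5 oxidase and antimicrobial genes 2 were tested, and both, Cybb (-0.38) and Ncf4 (-0.60), were lower as deposited and above 0 with TMM scaling (0.30 and 0.08). The call of Cybb was also lost without EE replicate 11 (-0.33, adjusted p = 0.123).

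Chemokine genes had 4 of 16 tested members higher and 6 lower (median -0.44), and under every scaling the same 4 higher and 1 lower. Besides Ppbp and Ccl24 the higher ones were Ccl12, a monocyte attractant, and Cxcl12, the stromal chemokine that retains blood progenitors. Ccl12 was at 27 and 30 in EE and 9 and 5 in placebo, both under background, so it was at least 2.3-fold higher (adjusted p = 3.24e-07). Cxcl12 was at 82 and 90 in EE and 33 and 48 in placebo (1.09 ± 0.29). The member lower was Ccl3, at 145 and 178 in EE and 491 and 469 in placebo (-1.57 ± 0.18). Chemokine receptors had 3 of 17 higher and 12 lower (median -0.86), and 2 higher and 5 lower under every scaling. Of 32 interleukins and growth factors only 13 were tested, with 2 higher, 4 lower and a median of -0.18. Il1a was at 48 and 47 in EE and 16 and 28 in placebo (1.13 ± 0.33), a call that was lost with the spread of the gene alone (adjusted p = 0.063), while Il16 fell by 1.05 and Csf1 by 1.27. Il10 was at 28 and 29 in EE and 30 and 15 in placebo (0.41 ± 0.37, not called). Il6 and Il17a, with at most 18 and 21 in any of the 4 samples, were not tested.

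Interleukin receptors had 3 of 26 higher and 19 lower (median -0.93), and 2 higher and 10 lower under every scaling. Besides Il7r and Il17rb, the lower ones included Il18r1 (-1.56), Il27ra (-1.42), Il17ra (-1.36) and the shared chains Il2rb (-1.13) and Il2rg (-1.01), and the 2 higher ones were Il1rl1 and Il1r1. TNF family genes had 1 of 19 higher and 12 lower (median -0.70). The share lower and the median were near the 63.5% and -0.69 of all tested genes, so the list as a whole did not stand out. Under every scaling Tnfrsf14 was higher and 3 were lower, Cd27 (-1.53), Cd40lg and Ltb (2861 and 2871 in EE, 5512 and 5980 in placebo). The TGF-beta pathway had Tgfb3 higher and 6 of 8 lower (median -0.77), with the receptor gene Tgfbr2 (-1.26), Ski (-1.29) and Smad5 (-1.10) among the 4 lower under every scaling. JAK, STAT and SOCS genes had 15 of 16 lower and 0 higher (median -0.91), 7 under every scaling, among them Jak1 (-1.03), Stat3 (-0.99) and Stat6 (-1.02). The exception was Cish, a feedback inhibitor that STAT5 induces, at 40 and 35 in EE and 28 and 31 in placebo (0.33 ± 0.32, not called). The NF-kB pathway had 16 of 17 lower and 0 higher (median -0.74), 6 under every scaling, among them Ikbkb (-1.30), Nfkb1 (-1.02) and Traf5 (-1.04). Over all tested genes, 63.5% were lower as deposited and 26.9% under every scaling, and the median was -0.69. With TMM scaling the NF-kB list had 1 higher and 6 lower. Its median there was -0.06, against -0.01 over all tested genes, so its shift as a list was close to that of the panel.

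Integrin and adhesion genes had 6 of 19 higher and 8 lower (median -0.28), and 3 higher and 4 lower under every scaling, with Icam4, Itga2b and Itgam as the higher ones and Pecam1 and Itgal (-1.05) among the lower. Apoptosis and survival genes had 1 of 13 higher and 7 lower (median -0.35). Bcl2 was at 475 and 470 in EE and 915 and 1214 in placebo and was lower under every scaling. B7 ligand and CD40 genes had 9 of 11 lower and 0 higher (median -0.96), 5 under every scaling, among them Cd274, PD-L1 (-0.96), while the costimulatory ligand gene Cd86 was at 899 and 1086 in EE and 1022 and 989 in placebo (-0.02 ± 0.14, not called) and called higher with TMM scaling (0.66). SLAM family genes had 4 of 5 lower and 0 higher (median -0.61), with the adaptor gene Sh2d1a (-1.37) lower under every scaling. That median was near the -0.69 of all tested genes, of which 63.5% were lower. The 2 autophagy genes Irgm1 (-0.85) and Atg16l1 (-0.67) were lower as deposited, but not with TMM scaling (-0.17 and 0.02). Of the 2 steroid-related genes measured, Fkbp5, a cochaperone of the glucocorticoid receptor, was at 125 and 105 in EE and 264 and 337 in placebo (-1.37 ± 0.20, lower under every scaling). Pparg, a nuclear receptor of lipid metabolism, rose by 0.70 and lost its call without EE replicate 14 (0.69, adjusted p = 0.0541) or placebo replicate 26 (0.44, adjusted p = 0.109). The estrogen receptor gene Esr1 was not among the named rows.

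The reference genes set the scale, so their own changes show only how unequal they were. Of the 12 named, 4 were called higher, 2 lower and 6 not, with a median of -0.04, while with TMM scaling 11 were higher and 0 lower (median 0.65). G6pdx, the first enzyme of the pentose phosphate pathway, was at 613 and 700 in EE and 413 and 369 in placebo (0.75 ± 0.15) and was the 1 called higher under every scaling. Oaz1, the ornithine decarboxylase antizyme gene, rose by 0.63 ± 0.13 and was not called under every scaling. Rpl19, a ribosomal protein gene, was at 23571 and 24691 in EE and 33372 and 33183 in placebo (-0.46 ± 0.14), a fall that lost its call without EE replicate 11 (-0.43, adjusted p = 0.0852) and turned to 0.22 with TMM scaling. Summed over the 12 genes, values were 51608 and 52529 in EE and 58122 and 56504 in placebo. The neutrophil and erythroid markers that were higher where lymphocyte genes were lower are those given above, and their part in the lower values was not tested.

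Promoter windows of 300 bases, from 250 bases before to 50 after each gene's start, were read from RefSeq (GRCm38.p6) for 422 of the 561 panel genes. The motif AGATAA, a core to which GATA factors of red cell, megakaryocyte and mast cell precursors bind, was searched on both strands. A gene was counted where any of its windows held a motif, so genes with several windows had more chances to match. Among genes with a window, AGATAA was present in 7 of the 28 that rose by more than 2-fold (25%). It was in 7 of the 88 that fell by more than 2-fold (7.95%), in 12.1% of the panel genes and in 12.7% of all 27025 genes. The 7 rising genes were Tal1, Icam4, S100a9, Ltf, Il1rl1, Ccr3 and Ccrl2. The 7 falling genes were Btnl2, Dpp4, Il6ra, Klra7, Lef1, Pdcd1lg2 and Smad5. These shares are a description of letters, given with no test. The palindromic estrogen response element, GGTCA and TGACC with any 3 bases between them, was in 0 of the 422 panel genes and in 0.074% of all genes. Its single element GGTCA, on either strand and with matches inside the palindrome counted too, was in 50% of rising, 42% of falling, 39.8% of panel and 43.6% of all genes. Windows of 3 rising genes, picked among those with the motif, are shown 5' to 3' with the match in capitals, beside that of Il7r, which has none. Tal1 had 2 windows, and a matching window is shown. They lie at chr4:115056176-115056475 (plus strand) for Tal1, chr9:21029182-21029481 (plus) for Icam4, chr3:90695672-90695971 (minus) for S100a9 and chr15:9529827-9530126 (minus) for Il7r. The matches begin at -205 in Tal1, -43 in Icam4 and -30 in S100a9 relative to the start.
Tal1: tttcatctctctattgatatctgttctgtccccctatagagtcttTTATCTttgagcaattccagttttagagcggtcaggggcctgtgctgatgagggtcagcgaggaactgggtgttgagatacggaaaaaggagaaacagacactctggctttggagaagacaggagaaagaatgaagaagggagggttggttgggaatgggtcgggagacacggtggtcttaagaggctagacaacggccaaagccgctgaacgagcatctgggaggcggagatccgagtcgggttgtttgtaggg
Icam4: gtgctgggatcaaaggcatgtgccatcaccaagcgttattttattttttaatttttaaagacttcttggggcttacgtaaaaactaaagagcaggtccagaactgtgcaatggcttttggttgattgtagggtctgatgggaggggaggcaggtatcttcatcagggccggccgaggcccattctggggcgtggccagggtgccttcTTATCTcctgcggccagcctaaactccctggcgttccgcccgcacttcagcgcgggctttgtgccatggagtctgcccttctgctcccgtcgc
S100a9: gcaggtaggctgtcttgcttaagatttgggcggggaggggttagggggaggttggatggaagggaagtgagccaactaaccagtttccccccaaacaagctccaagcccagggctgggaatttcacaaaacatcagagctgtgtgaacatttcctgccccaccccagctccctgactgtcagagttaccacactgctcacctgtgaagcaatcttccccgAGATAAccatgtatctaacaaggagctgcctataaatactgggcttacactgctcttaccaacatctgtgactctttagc
Il7r: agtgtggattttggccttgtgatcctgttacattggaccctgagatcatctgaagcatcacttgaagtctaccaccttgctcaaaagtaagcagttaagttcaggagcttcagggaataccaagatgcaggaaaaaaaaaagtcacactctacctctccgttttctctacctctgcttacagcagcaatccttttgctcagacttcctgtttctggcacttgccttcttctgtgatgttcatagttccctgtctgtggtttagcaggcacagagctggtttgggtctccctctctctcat
The log2 fold changes were 3.32 for Tal1, 3.50 for Icam4, 3.47 for S100a9 and -2.22 for Il7r. These 4 genes were picked for display, so they cannot show whether the motif goes with the direction of change.

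EE and E2 were compared directly in the same fit, to see where the estrogens that differ by the ethynyl group differed in response. Since the labels state no dose, it is not known whether the doses matched. Relative to E2, EE had 24 genes higher (5.25%) and 50 lower (10.9%) among 457, or 16.2% either way, with a median log2 fold change of -0.11. By more than 2-fold, 5 were higher (1.09%) and 10 lower (2.19%). With the spread of each gene alone 0 were called in limma, although 77 had an unadjusted p under 0.05, against 131 with the shared spread. These calls therefore rest on a spread shared between genes. Leaving out each EE or E2 sample in turn gave 7 to 14 higher and 15 to 30 lower genes, with 7 and 30 without EE replicate 14, 12 and 15 without EE replicate 11, 14 and 19 without E2 replicate 1, and 13 and 30 without E2 replicate 2.

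Neutrophil genes were lower in EE than in E2. Of the 5 granule genes 4 were lower (median -1.14), and of the 10 neutrophil receptors 9 were lower (median -0.89), with 0 higher in either list. S100a9 was at 27545 and 31216 in EE and 63594 and 71032 in E2 (-1.20 ± 0.14), so the EE samples lay between placebo and E2. Trem1, an amplifier of myeloid activation, was at 53 and 64 in EE and 137 and 163 in E2 (-1.34), and Cxcr2, the neutrophil chemokine receptor, at 110 and 106 in EE and 236 and 282 in E2 (-1.25). Against placebo, Trem1 was not called (0.23 ± 0.25), and the rise of Cxcr2 by 0.75 lost its call without placebo replicate 26 (0.33, adjusted p = 0.186). Ccl12 was lower as well (-1.35 ± 0.35), but not without EE replicate 11 (adjusted p = 0.0742), E2 replicate 1 (0.0668) or E2 replicate 2 (0.135). With quantile normalisation the calls of S100a9 (-1.04, adjusted p = 0.0936), S100a8 (-0.64, 0.113) and Cxcr2 (-1.11) were lost, where S100a8 was at -1.14 as deposited. The call of Ltf was lost without E2 replicate 2 (-0.79, adjusted p = 0.0655).

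Genes of several lists were higher in EE than in E2, beside others that were lower. The megakaryocyte and platelet list had 3 of 6 higher and 1 lower, complement 5 of 13 higher and 1 lower, and monocyte and macrophage genes 7 of 19 higher and 5 lower. Itga2b was at 385 and 210 in EE and 94 and 66 in E2 (1.84 ± 0.23), and Ppbp at 1675 and 1564 in EE and 638 and 498 in E2 (1.52 ± 0.15). Cxcl12 was at 82 and 90 in EE and 35 and 26 in E2 (1.48), and Clu at 345 and 309 in EE and 169 and 141 in E2 (1.08). These 4 genes were picked among those whose EE and E2 samples did not overlap, so their lack of overlap is no further result. C1qa was higher by 0.81 and C1qb by 0.79. Of the 8 erythroid and iron genes 4 were higher in EE and 0 lower, with a median of 0.43. Tal1 (0.53) and Icam4 (0.51) were called with all samples, but not when any 1 of the 4 EE and E2 samples was left out, where adjusted p ran between 0.0671 and 0.214 for Tal1 and between 0.0813 and 0.578 for Icam4. Abcb10 (0.52) lost its call, with adjusted p of 0.152, 0.313 and 0.0578, when E2 replicate 1, EE replicate 11 or EE replicate 14 was left out. On the positive controls Tal1, Icam4 and Abcb10 were at 0.29, 0.28 and 0.29 and were not called. The remaining one was Cd24a (0.52). Tfrc was at 14368 and 14188 in EE and 12165 and 12323 in E2, a difference of 0.22 with a 95% interval of -0.03 to 0.48 that was not called. With column totals as scale it was 0.48 and called (adjusted p = 0.0137).

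**Figure D5:**
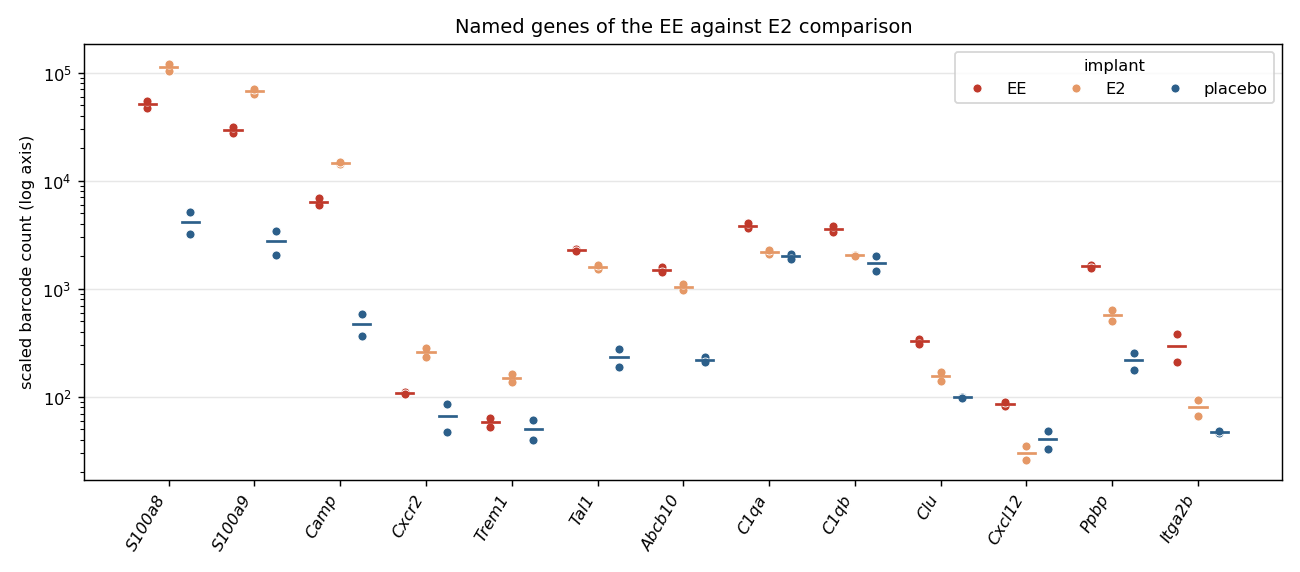
Scaled barcode counts (log axis) of 13 genes in EE (red), E2 (orange) and placebo (blue) splenocytes, each point 1 sample and each bar the mean of 2. Calprotectin genes and Camp are lower in EE than in E2 and higher than in placebo, while Ppbp and Itga2b are highest in EE.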

How the data were processed

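RNA of 6 splenocyte samples, 2 per group, was profiled on a NanoString nCounter mouse immunology panel with 561 genes and 14 control rows, per the labels. The deposited values were treated as a score: barcode counts that appear to have been scaled on 14 reference genes and rounded, a step inferred from the values and not given in the sources used here. No raw counts were used, so depth is known only on that scale. RefSeq row identifiers were matched to symbols for 549 genes, and 12 stayed unnamed. No further scaling was applied. Genes with a mean of at least 20 were fitted with limma 3.58.1 in R 4.3.3 (lmFit, eBayes with trend) on log2(value + 1) over the 3 groups, with Benjamini-Hochberg adjustment. This differs from the count test planned first, because the values are not counts. Both 95% intervals and SEs are from the fit.

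The members and the 44 gene lists were chosen with earlier results of these data known. Genes were named by rule. The first were the 14 largest increases and decreases with groups apart, a higher mean of at least 50 and the same call with TMM scaling. Up to 4 members per list with the lowest p followed, with the reference genes and preset genes such as Ifng and Foxp3. The last were the 4 largest differences each way between EE and E2, also with groups apart and a higher mean of at least 50. Others, such as C3, Cd4, Cd8a, Cd34, Ms4a1, Ccr2, Cd86 and Il1r1, were chosen after their values were seen. Results for some genes are not reported here.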

Additional observations from a re-analysis of the deposited data

How the results depend on the processing

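Counts of called genes depended on the scale. Genes higher in EE than in placebo numbered 72 as deposited, 141 with TMM scaling, 111 with the median gene and 40 with positive controls. Genes lower numbered 290 as deposited, 125 with TMM scaling, 190 with the median gene and 174 with quantile normalisation. Leaving out 1 sample gave 56 to 76 higher and 238 to 287 lower. Against E2, genes higher in EE numbered 24 as deposited, 43 with the median gene, 10 with positive controls, 83 with column totals, 10 without the trend and 0 with the spread of each gene alone. Genes lower numbered 50 as deposited, 25 with TMM scaling, 30 with the median gene, 117 with positive controls, 17 with column totals, 20 with quantile normalisation, 21 without the trend and 0 with the spread of each gene alone. Leaving out 1 sample gave 7 to 28 higher and 15 to 49 lower.

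Signs turned for these log2 fold changes of EE over placebo, and the cause was not tested. With TMM scaling they were 0.0166 for Atg16l1, 0.0819 for Ncf4, 0.30 for Cybb, 0.43 for Eef1g, 0.68 for Gusb, 0.18 for Polr1b, 0.61 for Ppia, 0.22 for Rpl19, 0.48 for Sdha, 0.46 for Tbp, 0.17 for Foxp3, 0.14 for Psmb9, 0.14 for Psmb10, 0.0655 for Pdcd1, 0.34 for B2m and 0.66 for Cd86. With quantile normalisation they were 0.0799 for Ncf4, 0.26 for Eef1g, 0.52 for Gusb, 0.31 for Ppia, 0.46 for Sdha, 0.12 for Psmb9 and 0.62 for Cd86, and B2m was at 0, with no sign. With the median gene they were 0.0819 for Cybb, 0.46 for Gusb, 0.39 for Ppia, 0.0012 for Rpl19, 0.25 for Sdha, 0.12 for B2m and 0.44 for Cd86. With column totals they were 0.35 for Gusb, 0.28 for Ppia, 0.0104 for B2m and 0.33 for Cd86. Tubb5 was at -0.022 with positive controls, and Fcgr4 ranged between -0.0915 without placebo replicate 26 and 1.241 without placebo replicate 22.

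No paired analysis was possible because the groups share no replicate numbers. The planned count test was not run, since the values are not counts. With 2 samples a group, the precision of each value is limited, and low genes near background are the least certain.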
